A study of Mus musculus with 8 samples.

Results

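The genes described here are the 9 genes Hba-a1, Hba-a2, Hbb-bs, Hbb-bt, Alas2, Klf1, Gata1, Epor and Slc4a1, which red blood cell precursors use to make hemoglobin and the red cell surface. They were taken by name from the 54532 Ensembl identifiers of the count table, and all 9 had a row and enough reads to be among the 15305 genes tested. The RNA came from B cells of the bone marrow and was sequenced as RNA-seq libraries, taken from mice after ovariectomy (OVX, removal of the ovaries, 3 libraries) or after a sham operation (Sham, 3 libraries). No further treatment is named for either group, and the labels of these libraries give no strain, age or time after surgery. The study's methods describe isolation of B cells with magnetic beads. The study describes its groups as mice, but the labels do not tie each library to a mouse of its own, so the p-values measure the spread between these libraries, part of which may be technical. The 9 genes are used here as genes of the erythroid line and are not B cell markers. Many genes of the further erythroid lists described below are also used by other cells, B cell precursors among them. The comparison asked how much RNA of the 9 genes each library held, whether the globins moved with the other erythroid genes, and whether OVX differed from Sham.

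Hemoglobin is built from alpha and beta globin chains, each holding a heme group that binds oxygen. Erythropoietin acts through its receptor, Epor, to keep erythroid precursors alive, while the transcription factors Gata1 and Klf1 switch on the globin genes, the heme pathway and the red cell membrane genes. Alas2 carries out the first step of heme synthesis in erythroid cells, and Slc4a1 is band 3, the anion exchanger of the red cell membrane. Early precursors are rich in Gata1 and Klf1 RNA, and globin RNA builds up later and stays in reticulocytes after the nucleus is lost. Gata1 is also used by megakaryocytes, mast cells, basophils and eosinophils.

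The libraries held between 23838775 and 33136701 counts. In each of them the B cell marker list led by Cd79a was present, with 12 of 12 genes detected and a summed level of 8686 to 9752 CPM in Sham and 9029 to 10437 CPM in OVX. Of the 12, 10 were higher in OVX and the median was 0.17 on the log2 scale, which was between 0.0443 and 0.27 when any single library was left out. CPM are counts scaled to a common library total, adjusted by edgeR's TMM factors. Markers of other marrow cells differed far more between the libraries. The 18 neutrophil markers summed to 2685, 3623 and 10240 CPM in Sham and to 4322, 1189 and 1260 CPM in OVX, given here and in what follows in the order of the replicate numbers, and all 18 were highest in Sham replicate 3. The 12 resident macrophage markers summed to 1463, 3030 and 834 CPM in Sham and to 774, 855 and 2567 CPM in OVX, with 10 of 12 highest in Sham replicate 2 and 2 of 12 highest in OVX replicate 3.

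The globin genes were a small part of every library. The 4 globins together took 0.0192% to 0.0430% of the counts in Sham and 0.0127% to 0.0265% in OVX, and the 9 genes took 0.0217% to 0.0482% in Sham and 0.0142% to 0.0293% in OVX. All 9 genes had a lower mean level in OVX, none was called, and for none did the OVX libraries lie all on the same side of the Sham libraries. To be called, a gene needed a fold change of 1.6 or more and an adjusted p-value under 0.05 in edgeR's quasi-likelihood test, which 0% of the 15305 genes reached. Klf1 alone, 1 of the 9 genes, had an unadjusted p-value under 0.05 and was lower in OVX, beside 2.28% of all genes tested, and 0 were higher, beside 1.47%. By DESeq2 0 of the 9 were called too, with 3 at an unadjusted p-value under 0.05, beside 755 of 27416 over all genes. In a bulk library fewer erythroid cells and less RNA per erythroid cell cannot be told apart.

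The upstream sequences of 8 of the 9 genes were found in the RefSeq promoter table (build GRCm38.p6), and 5 of them, of Hba-a1, Hbb-bs, Hbb-bt, Alas2 and Klf1, are printed as examples. Each run is the 250 bases before the annotated start, 5′ to 3′ on the gene's own strand. Capitals mark GATAA or its reverse complement TTATC, the core bound by GATA factors, and CCNCNCCC or GGGNGNGG, the CACC-type core bound by KLF factors, both searched on both strands. The windows are chr11:32283422-32283671 on the plus strand for Hba-a1, chr7:103827929-103828178 and chr7:103813924-103814173 on the minus strand for Hbb-bs and Hbb-bt, chrX:150547167-150547416 on the plus strand for Alas2 and chr8:84901732-84901981 on the plus strand for Klf1.
Hba-a1: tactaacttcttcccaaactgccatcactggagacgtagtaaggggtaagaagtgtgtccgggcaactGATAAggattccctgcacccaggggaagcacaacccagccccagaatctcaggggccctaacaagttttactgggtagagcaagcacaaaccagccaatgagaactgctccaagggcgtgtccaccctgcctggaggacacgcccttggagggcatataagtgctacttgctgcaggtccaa
Hbb-bs: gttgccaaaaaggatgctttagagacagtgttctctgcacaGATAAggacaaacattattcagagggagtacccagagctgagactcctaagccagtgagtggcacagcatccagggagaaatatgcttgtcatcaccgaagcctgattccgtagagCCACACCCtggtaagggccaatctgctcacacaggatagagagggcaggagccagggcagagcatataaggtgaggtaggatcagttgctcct
Hbb-bt: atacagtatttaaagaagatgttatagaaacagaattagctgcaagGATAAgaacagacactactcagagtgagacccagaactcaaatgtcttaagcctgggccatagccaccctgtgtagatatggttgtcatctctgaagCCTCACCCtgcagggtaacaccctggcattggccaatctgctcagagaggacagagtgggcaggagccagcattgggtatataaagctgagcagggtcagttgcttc
Alas2: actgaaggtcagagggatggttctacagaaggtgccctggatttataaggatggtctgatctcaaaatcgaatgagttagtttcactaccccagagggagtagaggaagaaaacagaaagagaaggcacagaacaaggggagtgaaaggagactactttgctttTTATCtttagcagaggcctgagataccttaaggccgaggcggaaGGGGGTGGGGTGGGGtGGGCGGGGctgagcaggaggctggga
Klf1: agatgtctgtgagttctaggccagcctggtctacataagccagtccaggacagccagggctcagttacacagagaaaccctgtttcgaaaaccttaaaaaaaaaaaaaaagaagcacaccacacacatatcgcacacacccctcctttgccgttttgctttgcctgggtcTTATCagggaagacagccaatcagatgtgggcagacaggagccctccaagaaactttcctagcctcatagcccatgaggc
A GATAA match lay in 7 of the 8 windows, all but that of Gata1, while 22.6% of the 32851 upstream windows in the table hold it. The CACC-type core, which 45.9% of all windows hold, was found in Hbb-bs, Hbb-bt, Alas2, Gata1 and Epor and not in the windows of Hba-a1, Hba-a2 and Klf1. Alas2 had 4 such matches between 42 and 19 bases before the start, and 3 of these overlap each other. The letters ATATAA, part of a box that positions transcription starts, lay 31 to 23 bases before the start in the 4 globins and in none of the other windows, beside 9.1% of all windows. CCAAT was found in the 4 globins and Klf1, beside 33.8% of all windows. The Hba-a2 window, chr11:32296242-32296491, shares an unbroken run of 247 bases with that of Hba-a1, whereas the windows of Hbb-bs and Hbb-bt are 70.9% identical when aligned. The window of Gata1, chrX:7967911-7968160, lies within the annotated gene, which runs from 7959260 to 7976663 on chromosome X. These matches describe the letters in the windows, and binding was not measured for them here.

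Both alpha globin genes lie on chromosome 11, Hba-a1 (ENSMUSG00000069919) from 32283672 to 32284486 and Hba-a2 (ENSMUSG00000069917) from 32296492 to 32297310. They encode the same chain, so reads may have been split between them by the counting, whose handling of such reads is not given. Hba-a1 had 1180, 3735 and 1998 counts in the Sham libraries and 1830, 1108 and 2678 in the OVX libraries. Scaled for depth these were 49.8, 131 and 80.3 CPM in Sham and 74.5, 39.1 and 81.0 CPM in OVX. Sham replicate 2 stood highest and OVX replicate 2 lowest, with the other libraries of both groups interleaved. Hba-a1 averaged 64.8 ± 22.6 CPM over OVX and 87.2 ± 41.3 CPM over Sham (SD, n = 3 each). Its log2 fold change was -0.43 (SE 0.38, edgeR quasi-likelihood adjusted p = 0.815). Hba-a2 had 187, 565 and 214 counts in Sham and 260, 201 and 426 in OVX, or 7.89, 19.9 and 8.60 CPM against 10.6, 7.09 and 12.9 CPM. Here 2 of the 3 OVX libraries lay above 2 of the 3 Sham libraries, and only Sham replicate 2 put the Sham mean above the OVX mean. The log2 fold change of Hba-a2 was -0.25 (SE 0.39, edgeR quasi-likelihood adjusted p = 0.873), and without Sham replicate 2 it was 0.30.

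The adult beta globin genes lie on chromosome 7, Hbb-bs (ENSMUSG00000052305) from 103826523 to 103827928 and Hbb-bt (ENSMUSG00000073940) from 103812524 to 103813923. Hbb-bs gave 2537, 6204 and 2653 counts in Sham and 2837, 1986 and 4719 in OVX, which is 107, 218 and 107 CPM against 115, 70.0 and 143 CPM. Its highest library was again Sham replicate 2, followed by OVX replicate 3. Hbb-bs averaged 109 ± 36.7 CPM over OVX and 144 ± 64.4 CPM over Sham (SD, n = 3 each), with a log2 fold change of -0.40 (SE 0.35, edgeR quasi-likelihood adjusted p = 0.814). Hbb-bt gave 663, 1439 and 705 counts in Sham and 660, 394 and 955 in OVX, or 28.0, 50.6 and 28.3 CPM against 26.9, 13.9 and 28.9 CPM. Apart from the high Sham replicate 2 and the low OVX replicate 2, the other 4 libraries lay between 26.9 and 28.9 CPM. The log2 fold change of Hbb-bt was -0.62 (SE 0.33, edgeR quasi-likelihood adjusted p = 0.811), the most negative of the 4 globins. All 4 globins were lower in OVX, at a median of -0.41 on the log2 scale, but without Sham replicate 2 only Hba-a1 (-0.0056) and Hbb-bt (-0.28) were, and the median was 0.0139. Dropping OVX replicate 2 instead left all 4 lower, at a median of -0.16, and dropping both Sham replicate 2 and OVX replicate 3, the libraries with the highest globin levels, left 3 of 4 lower, at a median of -0.20. Of the 12 macrophage markers 10 were highest in Sham replicate 2 and 2 in OVX replicate 3. Their summed level was lowest in OVX replicate 1, whereas the 4 globins were lowest in OVX replicate 2. In OVX 12 of 12 macrophage markers were lower, at a median of -0.35 on the log2 scale, but 0 of 12 were lower without Sham replicate 2, at a median of 0.30. With OVX replicate 3 dropped as well, 12 of 12 were lower, at a median of -0.46. With OVX replicate 1, 2 or 3 alone left out the median was -0.0601, -0.0964 or -1.13. C1qa, for example, had 222 CPM in Sham replicate 2, 187 CPM in OVX replicate 3 and 55.6 to 103 CPM in the other libraries, and Vcam1 had 590, 484 and 132 to 278 CPM. Over the 6 libraries Pearson's r of log2 levels with the macrophage markers was 0.58 (Hba-a1), 0.78 (Hba-a2), 0.80 (Hbb-bs) and 0.68 (Hbb-bt). With the basophil, mast cell and eosinophil markers it was 0.77, 0.45, 0.60 and 0.76. For the other 5 genes r with the macrophage markers was 0.60 (Alas2), 0.54 (Epor), 0.10 (Slc4a1), -0.33 (Gata1) and -0.35 (Klf1). The values of Alas2 and Epor were thus near that of Hba-a1. The part of macrophages or of those other cells in the globin result was not tested.

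**Figure D1:**
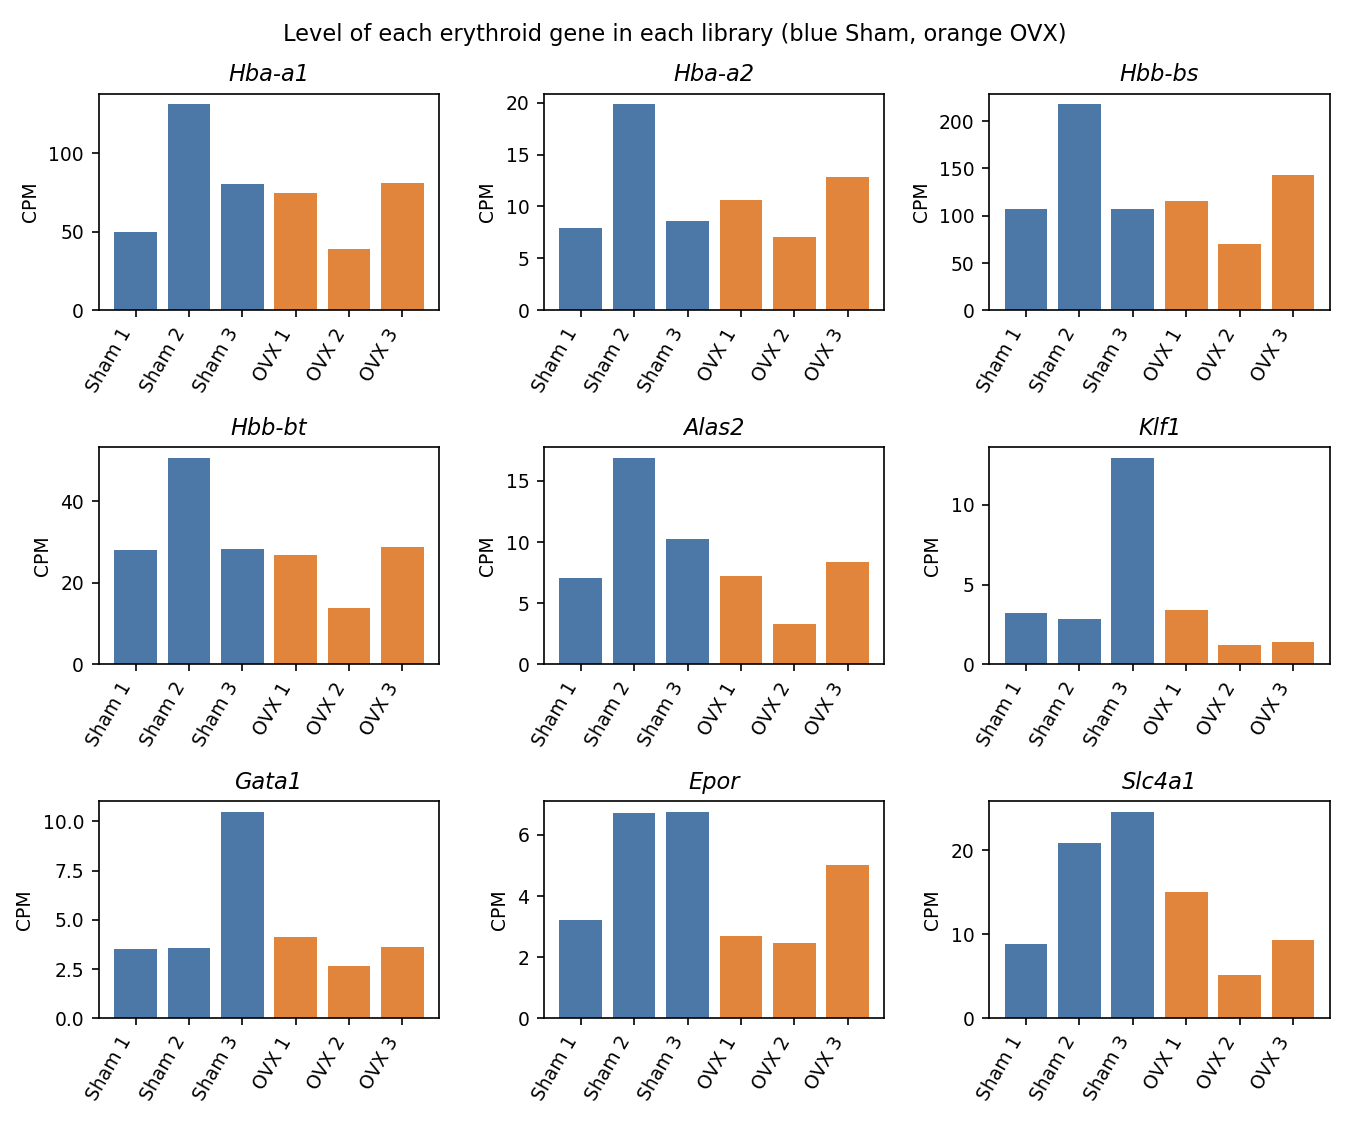
Level of each of the 9 genes in CPM (vertical axis, from 0, a separate scale for each gene) in the 3 Sham libraries (blue) and the 3 OVX libraries (orange), with 1 bar per library and no error. The 4 globins and Alas2 were highest in Sham replicate 2, the other 4 genes were highest in Sham replicate 3, and all 9 were lowest in OVX replicate 2.

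Alas2 (ENSMUSG00000025270), on chromosome X from 150547417 to 150570622, had 167, 480 and 256 counts in Sham and 178, 94 and 276 in OVX. The levels were 7.04, 16.9 and 10.3 CPM in Sham and 7.24, 3.31 and 8.35 CPM in OVX. Like the globins, this heme enzyme was highest in Sham replicate 2 and lowest in OVX replicate 2, but its second highest library was Sham replicate 3 rather than OVX replicate 3. Alas2 averaged 6.30 ± 2.65 CPM over OVX and 11.4 ± 5.02 CPM over Sham (SD, n = 3 each). The log2 fold change was -0.86 (SE 0.42, edgeR quasi-likelihood adjusted p = 0.811, and 0.0787 before adjustment). It lay between -1.12 and -0.46 when any single library was left out, with the smallest differences when Sham replicate 2 (-0.46) or OVX replicate 2 (-0.55) was dropped.

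Klf1 (ENSMUSG00000054191), on chromosome 8 from 84901982 to 84905291, is the erythroid Krüppel-like factor and had the steepest differences between libraries of the 9 genes. Its counts were 76, 81 and 322 in Sham and 83, 34 and 46 in OVX, or 3.20, 2.85 and 12.9 CPM against 3.38, 1.20 and 1.39 CPM. Sham replicate 3 stood alone, and each of the other libraries held between 9.26% and 26.1% of its level. The highest Klf1 level was 10.8 times the lowest, a ratio that 1.87% of the tested genes reached, while the median gene had a ratio of 1.43. Klf1 averaged 1.99 ± 1.21 CPM over OVX and 6.33 ± 5.73 CPM over Sham (SD, n = 3 each), with a log2 fold change of -1.68 (SE 0.69, edgeR quasi-likelihood adjusted p = 0.811, and 0.0437 before adjustment). With Sham replicate 3 left out it became -0.62, and without OVX replicate 1 it was -2.28. The neutrophil markers were also highest in Sham replicate 3. Over the 6 libraries Pearson's r of log2 levels with them was 0.97 for Klf1, 0.88 for Slc4a1, 0.86 for Gata1, 0.56 for Alas2 and 0.47 for Epor. For the globins it lay between 0.062 and 0.44. The part of neutrophils in the Klf1 result was not tested.

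Gata1 (ENSMUSG00000031162) had 84, 101 and 261 counts in Sham and 101, 76 and 120 in OVX, or 3.54, 3.55 and 10.5 CPM against 4.11, 2.68 and 3.63 CPM. As for Klf1, Sham replicate 3 was far above the rest, and the other 5 libraries held 25.5% to 39.2% of its level. The log2 fold change of Gata1 was -0.75 (SE 0.46, edgeR quasi-likelihood adjusted p = 0.811), and without Sham replicate 3 it was -0.0396. Megakaryocytes also use Gata1. Of the megakaryocyte markers, 9 of 9 tested genes were highest in OVX replicate 3, and all 9 were higher in OVX. The median was 0.65 on the log2 scale, or 0.33 without OVX replicate 3. Itga2b and Pf4 reached 55.5 and 25.0 CPM there and lay between 23.7 and 39.6 CPM and between 8.21 and 12.9 CPM in the other libraries. Gp1bb was at 0 in 5 libraries. Markers of basophils, mast cells and eosinophils were highest in Sham replicate 3 for 9 of 12 genes, with 11 of 12 lower in OVX and a median of -1.09 on the log2 scale, or -0.49 without that library and -1.78 without OVX replicate 1. Among them Mcpt8, a basophil protease, had 13.3 CPM in that library and 1.42 to 6.27 CPM elsewhere, and Cpa3, a mast cell protease, had 4.78 CPM against 0.907 to 3.41 CPM. The part of megakaryocytes, basophils, mast cells and eosinophils in the Gata1 level was not tested.

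Epor (ENSMUSG00000006235), on chromosome 9 from 21958897 to 21963576, had 76, 191 and 168 counts in Sham and 66, 70 and 166 in OVX. At 3.20, 6.72 and 6.75 CPM in Sham and 2.69, 2.47 and 5.02 CPM in OVX, the receptor was about equally high in Sham replicates 2 and 3, and OVX replicate 3 came next. Its log2 fold change was -0.71 (SE 0.39, edgeR quasi-likelihood adjusted p = 0.811), with a range of -1.11 to -0.52 when any single library was left out. Slc4a1 (ENSMUSG00000006574), on chromosome 11 from 102348820 to 102365281, had 211, 594 and 612 counts in Sham and 370, 147 and 309 in OVX. These were 8.90, 20.9 and 24.6 CPM in Sham and 15.1, 5.18 and 9.34 CPM in OVX. Band 3 RNA was thus high in Sham replicates 2 and 3, and Sham replicate 1 lay within the OVX range. The log2 fold change of Slc4a1 was -0.88 (SE 0.47, edgeR quasi-likelihood adjusted p = 0.811), and it ranged from -1.32 to -0.57 when any single library was left out. Over the 6 libraries Pearson's r of its log2 level was 0.97 with the basophil, mast cell and eosinophil markers. With the B cell markers it was -0.95. The part of these cells in the Slc4a1 result was not tested.

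**Figure D2:**
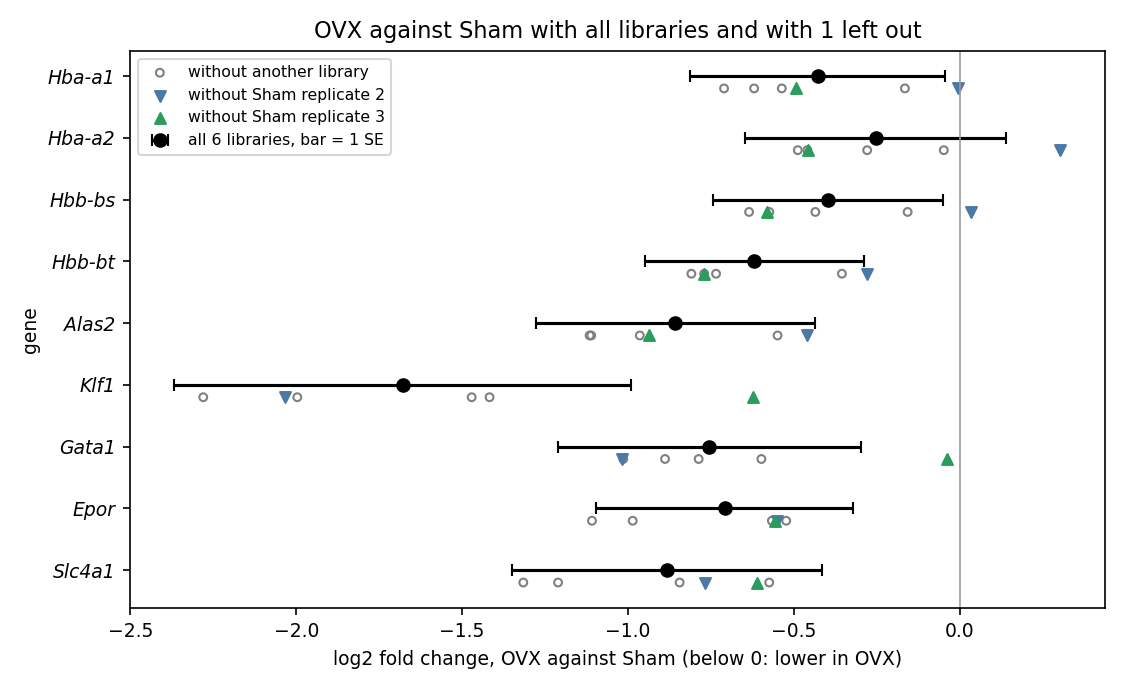
Log2 fold change of each gene, OVX against Sham (horizontal axis, below 0 is lower in OVX), with all 6 libraries (black, bar = 1 SE) and with 1 library left out (blue, without Sham replicate 2; green, without Sham replicate 3; open circles, without another library). The globins moved to between -0.28 and 0.30 without Sham replicate 2, and Klf1 and Gata1 moved to -0.62 and -0.0396 without Sham replicate 3.

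A two-sided exact permutation test over the 6 libraries gave p-values between 0.2 for Epor and 0.8 for Hba-a2, where 3 libraries against 3 cannot go below 0.1. Between libraries the 9 genes varied more than most genes, with a highest to lowest ratio of 2.74 for Epor, 2.81 for Hba-a2, 3.12 for Hbb-bs, 3.36 for Hba-a1, 3.65 for Hbb-bt, 3.91 for Gata1, 4.75 for Slc4a1 and 5.10 for Alas2 besides that of Klf1. Of all tested genes 17.6% reached the ratio of Epor and 6.38% that of Alas2.

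The globins and the other 5 genes were then compared within each library, as a ratio of their counts that needs no scaling for depth. Such a ratio depends on transcript lengths, which were not used, so that only its differences between libraries carry information. There were 7.44, 8.25 and 3.44 globin counts for each count of the 5 other genes in Sham and 7.00, 8.76 and 9.57 in OVX. The globin part of the counts of the 9 genes was 77.5% in Sham replicate 3 (exact binomial 95% interval 76.5% to 78.4%, counting error only) and between 87.5% and 90.5% in the other 5 libraries. Sham replicate 3 thus held fewer globin counts per count of the other genes than any other library, by more than its counting error. The ratio averaged 8.45 ± 1.31 over OVX and 6.38 ± 2.58 over Sham (SD, n = 3 each), a difference of 0.49 on the log2 scale that was below the pooled SD of 0.514. The difference was 0.0957 without Sham replicate 3.

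Among single genes, Klf1 set the globins apart the most. The ratio of globin to Klf1 counts was 60.1, 147 and 17.3 in Sham and 67.3, 108.5 and 191 in OVX, a more than 10-fold range over the 6 libraries. Sham replicate 2 and OVX replicate 3, the libraries with the highest globin levels, were also those with the highest globin counts per Klf1 count. Globin counts are the upper part of this ratio, so that match is in part built in. OVX replicate 2, with the lowest globin level, stood at 108.5, above Sham replicate 1 and OVX replicate 1. Alas2 kept closer to the globins, with 27.3, 24.9 and 21.8 globin counts per Alas2 count in Sham and 31.4, 39.2 and 31.8 in OVX, a 1.80-fold range. By this ratio the lowest OVX library was above the highest Sham library, at 34.1 ± 4.42 against 24.7 ± 2.80 (SD, n = 3 each). It was 1 of 12 ratios computed, and the only 1 of them whose groups did not overlap. Among the 15305 single genes 4.33% had all OVX libraries above all Sham libraries and 4.12% had all of them below. Slc4a1 to Klf1 ratios were 2.78, 7.33 and 1.90 in Sham and 4.46, 4.32 and 6.72 in OVX, and Alas2 to Klf1 ratios were 2.20, 5.93 and 0.795 in Sham and 2.14, 2.76 and 6.00 in OVX. Sham replicate 3 was the lowest library in both.

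The transcription factors Klf1 and Gata1 did not keep a fixed proportion. Klf1 counts per Gata1 count were 0.905, 0.802 and 1.23 in Sham and 0.822, 0.447 and 0.383 in OVX. Klf1 was 55.2% of the counts of both factors in Sham replicate 3 (exact binomial 95% interval 51.1% to 59.3%). It was 30.9% in OVX replicate 2 (22.4% to 40.4%) and 27.7% in OVX replicate 3 (21.1% to 35.2%). The megakaryocyte markers summed to 101, 98.4 and 120 CPM in Sham and to 165, 113 and 274 CPM in OVX. Their part in this ratio was not tested.

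Within the globins the balance of the chains was steadier. Alpha to beta globin count ratios were 0.427, 0.563 and 0.659 in Sham and 0.598, 0.550 and 0.547 in OVX, a 1.54-fold range with the OVX libraries inside the Sham range. The ratio of Hbb-bs to Hbb-bt was 3.83, 4.31 and 3.76 in Sham and 4.30, 5.04 and 4.94 in OVX, at 4.76 ± 0.403 against 3.97 ± 0.300 (SD, n = 3 each). Only Sham replicate 2 reached into the OVX range. Hba-a1 to Hba-a2 ratios were 6.31, 6.61 and 9.34 in Sham and 7.04, 5.51 and 6.29 in OVX, with Sham replicate 3 above the rest.

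**Figure D3:**
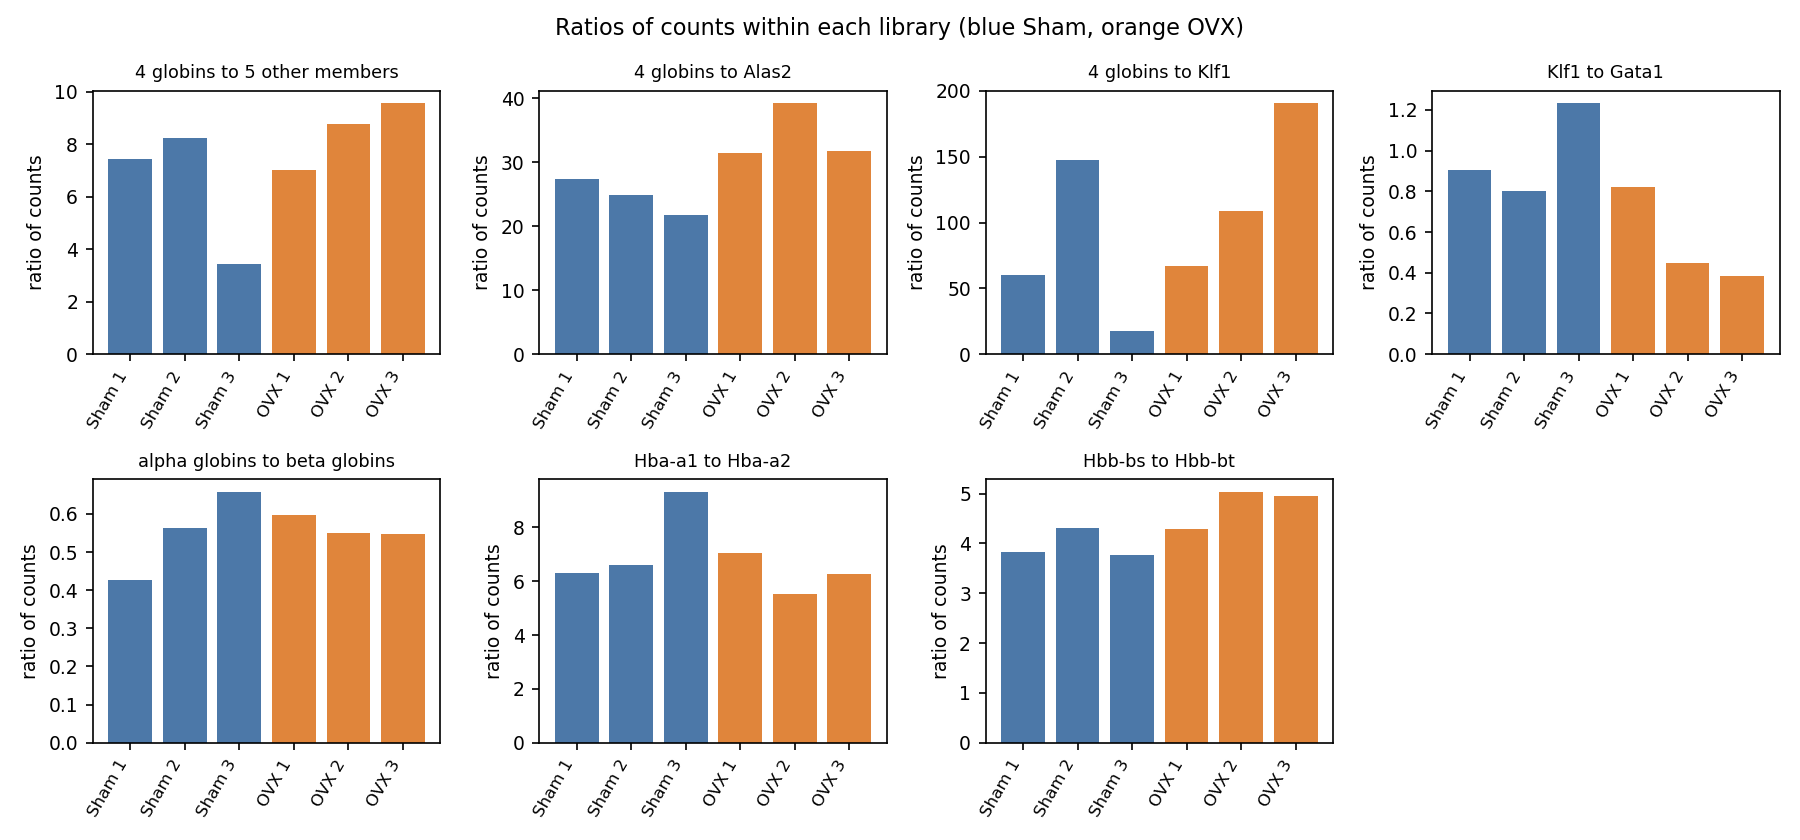
Ratios of counts within each library (vertical axes, from 0) for the 3 Sham libraries (blue) and the 3 OVX libraries (orange), 1 bar per library, with no error drawn. Sham replicate 3 had the lowest ratio of globins to the 5 other genes, 3.44, and to Klf1, 17.3, and the ratio of globins to Alas2 was 31.4 to 39.2 in OVX and 21.8 to 27.3 in Sham.

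Other erythroid genes were taken from 6 lists of 71 genes, of which 70 had a row and 63 enough reads to be tested. Many of them are not limited to erythroid cells. Compared with Sham, 46 of the 63 genes were lower and 17 higher in OVX, and their median log2 fold change was -0.23 beside -0.0081 over all genes tested, and 0 were called. Before adjustment, 10 of the 63 had a p-value under 0.05 (edgeR's quasi-likelihood test) with a lower level in OVX, beside 2.28% of all genes, and 1 with a higher level, beside 1.47%. Without Sham replicate 3 the number in either direction was 1 in the red cell membrane list and 2 in the late red cell list. It was 0 in the heme, transcription factor and erythropoietin signalling lists, and 286 of 15890 over all genes. The highest library was Sham replicate 3 for 35 of the 63 genes, or 55.6%, beside 18.3% of all tested genes, and it was Sham replicate 2 for 22.2%, beside 25.7%.

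The embryonic globins were at or near 0. Hba-x and Hbb-y had 0 counts in all 6 libraries, Hbb-bh1 and Hbb-bh2 had 3 and 1 counts in OVX replicate 3 and 0 elsewhere, and Hbq1a had at most 1. A count of 0 allows up to 3 counts, which is 0.0907 to 0.127 CPM in these libraries. Hbq1b, a theta globin, had 4, 13 and 3 counts in Sham and 2 in each OVX library, with its highest count in Sham replicate 2 like the adult globins. None of these 6 genes had enough reads to be tested.

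In the red cell membrane and skeleton list most genes had their high library in common with Klf1. Of the 16 tested genes 13 were highest in Sham replicate 3 and 3 in Sham replicate 2. In OVX 15 were lower and 1 higher. The median of their log2 fold changes was -1.20, and with 1 library left out it became -0.54 (Sham replicate 3), -1.75 (OVX replicate 1) or -0.90 (OVX replicate 2). Tmod1 had too few reads to be tested. The genes with the most reads, a ranking that takes no account of transcript length, were Epb41, the protein 4.1 that joins spectrin to the membrane (log2 fold change -0.23), the glucose carrier Slc2a1 (0.0731), the glycophorin Gypc (-0.20) and the water channel Aqp1 (-1.16). None was called, and 5 of the 16 genes had an unadjusted p-value under 0.05 without passing the adjustment. All 5 were lower in OVX, beside 2.28% of all genes tested. With 1 library left out the number was 10, 7 and 1 (Sham replicates 1, 2 and 3) and 12, 1 and 2 (OVX replicates 1, 2 and 3). Over all genes it was 2698 of 16051, 360 of 15609, 286 of 15890, 988 of 15977, 233 of 15737 and 411 of 15678 in the same order. Add2, beta adducin, had 4.98, 4.36 and 12.6 CPM in Sham and 3.09, 1.45 and 2.36 CPM in OVX, a log2 fold change of -1.67 (SE 0.48, edgeR quasi-likelihood adjusted p = 0.811). Its OVX libraries all lay below the Sham libraries. This was so for 3 of the 16 tested genes of the list, Dmtn among them, beside 4.12% of all genes tested. The reverse held for 0 of them, beside 4.33%. Further genes below Sham before adjustment were the skeleton protein dematin, Dmtn (-1.61), the Scianna blood group protein Ermap (-1.49) and protein 4.2, Epb42 (-1.20). The neutrophil markers, with S100a9 at 2486 CPM in Sham replicate 3 and 294 to 1095 CPM in the other libraries, shared this library pattern, with 18 of 18 lower in OVX. The median of these was -1.29 on the log2 scale, and it became -0.57 without Sham replicate 3 and -2.33 without OVX replicate 1. Their summed CPM in the highest library was 8.61 times that in the lowest, and their part in the result was not tested.

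**Figure D4:**
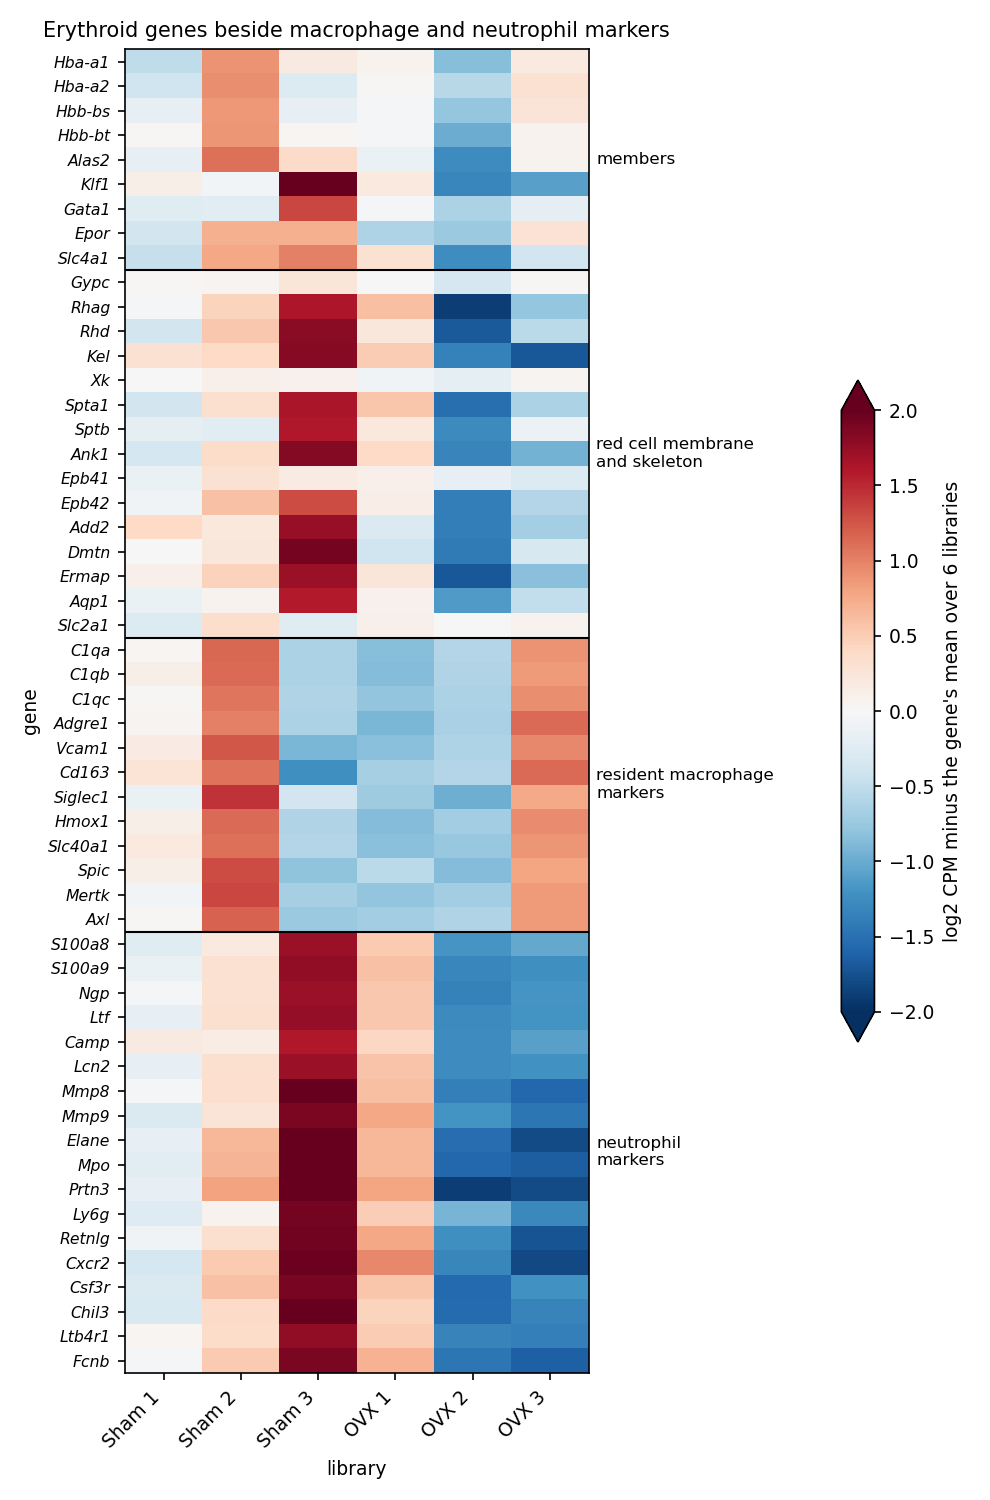
Log2 CPM of each gene minus its mean over the 6 libraries (colour, red above and blue below the mean, with differences past 2 drawn in the end colours) for the 9 genes, 15 of the 16 tested red cell membrane genes, 12 macrophage and 18 neutrophil markers (rows) in the 6 libraries (columns). The globins and Alas2 shared their high library, Sham replicate 2, with 10 of the 12 macrophage markers. Klf1, Gata1 and 12 of the 15 membrane genes shown were highest in Sham replicate 3, as were all 18 neutrophil markers.

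For heme synthesis and its mitochondrial carriers, 11 of 13 genes were lower in OVX and 2 higher, and 9 of 13 were highest in Sham replicate 3. Their median log2 fold change was -0.19, which became -0.29 without Sham replicate 1. Scaled on the B cell markers it was -0.30, with 13 of 13 lower, while the median of all genes moved from -0.0081 to -0.11. Most genes of this heme list serve every cell. Those with the most reads were the mitochondrial iron carrier Slc25a37 (log2 fold change -0.11), the porphyrin transport protein Tmem14c (-0.0423) and the late pathway enzymes Ppox (-0.16) and Cpox (-0.14). Of the 13 genes 2 had an unadjusted p-value under 0.05, both with a lower level in OVX. With Sham replicate 1 left out 7 genes had a p-value under 0.05 before adjustment, with OVX replicate 2 left out 1 had, and 0 had when Sham replicate 3 or OVX replicate 3 was dropped. Over all genes such p-values numbered 574 of 15305 with all libraries and 2698 of 16051 without Sham replicate 1. They numbered 233 of 15737 without OVX replicate 2, 286 of 15890 without Sham replicate 3 and 411 of 15678 without OVX replicate 3. Alas1, which carries out the step of Alas2 outside the erythroid line, had 33.7, 38.8 and 53.7 CPM in Sham and 34.1, 28.5 and 28.5 CPM in OVX, a log2 fold change of -0.47 (SE 0.18, edgeR quasi-likelihood adjusted p = 0.811). Abcb10, a mitochondrial transporter needed for hemoglobin production, had 20.4, 27.1 and 29.0 CPM in Sham and 20.1, 19.2 and 16.9 CPM in OVX. Its log2 fold change was -0.44 (unadjusted p = 0.0223, edgeR quasi-likelihood adjusted p = 0.811). All its OVX libraries lay below all Sham libraries, as for 2 of the 13 genes of this list, beside 4.12% of all genes tested.

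Among 10 other erythroid transcription factors 8 were lower and 2 higher in OVX. The median was -0.27 on the log2 scale. It was -0.10 when Sham replicate 3 was left out, -0.37 without Sham replicate 1 and -0.34 without OVX replicate 1. Of the 10, 1 had an unadjusted p-value under 0.05. Without Sham replicate 1 there were 5, beside 2698 of 16051 over all genes, and without OVX replicate 1 there were 2, beside 988 of 15977. The factors with the most reads were Myb (log2 fold change 0.34) and Bcl11a (-0.0675), which B cell precursors use too, the Gata1 partner Zfpm1 (0.26) and the adaptor Ldb1 (-0.0288). Gata2, a factor of early progenitors and mast cells, had 2.61, 3.52 and 6.75 CPM in Sham and 3.21, 1.16 and 1.30 CPM in OVX, a log2 fold change of -1.19 (SE 0.51, unadjusted p = 0.0498 and edgeR quasi-likelihood adjusted p = 0.811). In the group of erythropoietin signalling and transferrin receptors 5 of 11 genes were lower and 6 higher, with a median of 0.047, and 0 had an unadjusted p-value under 0.05. Scaling on the B cell markers, which moved the median of all genes to -0.11, turned this to 9 lower and a median of -0.0488. Without Sham replicate 1, 3 of the 11 had an unadjusted p-value under 0.05, beside 2698 of 16051 over all genes. Without OVX replicate 1 there was 1, beside 988 of 15977. With single libraries left out the median of this group lay between -0.0722 and 0.0711. Its genes with the most reads were the transferrin receptor Tfrc (log2 fold change 0.0470), the kinase Pim1 (0.0479), the survival factor Bcl2l1 (0.37) and Stat5b (0.0549), which acts below the erythropoietin receptor, and none of these is limited to erythroid cells.

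The late red cell enzymes and proteins were split, with 7 of 13 genes lower and 6 higher in OVX. The median was -0.051 on the log2 scale and turned to 0.0508 when OVX replicate 2 was left out. An unadjusted p-value under 0.05 was found for 3 of the 13, beside 574 of 15305 over all genes. Without Sham replicate 1 it was found for 8, beside 2698 of 16051. With any other single library left out it was found for 2 to 5. With scaling on the B cell markers, which moved the median of all genes to -0.11, 9 of the 13 were lower. The genes with the most reads were catalase, Cat (log2 fold change 0.0602), the mitophagy receptor Bnip3l (0.14), the peroxiredoxin Prdx2 (0.0841) and Mkrn1 (0.15). Carbonic anhydrase 1, Car1, had 12.2, 10.4 and 36.5 CPM in Sham and 11.2, 4.44 and 5.53 CPM in OVX, a log2 fold change of -1.49 (SE 0.56, unadjusted p = 0.0309 and edgeR quasi-likelihood adjusted p = 0.811), with the same high library as Klf1. Trim10, which is needed for late erythroid maturation, had 2.19, 4.01 and 4.42 CPM in Sham and 1.75, 0.917 and 1.39 CPM in OVX. All OVX libraries lay below the Sham libraries for Trim10, with a log2 fold change of -1.39 (SE 0.36, unadjusted p = 0.00609 and edgeR quasi-likelihood adjusted p = 0.811). In this list 1 of 13 genes lay below in this way, beside 4.12% of all genes tested. All OVX libraries lay above for 2 of 13, beside 4.33%. Fn3krp, a kinase that removes sugars from proteins, had 8.39 to 9.04 CPM in Sham and 11.2 to 12.6 CPM in OVX, a log2 fold change of 0.44 (SE 0.13, unadjusted p = 0.01 and edgeR quasi-likelihood adjusted p = 0.811). It was the only listed erythroid gene above Sham with an unadjusted p-value under 0.05.

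The 10 genes whose levels followed the 4 summed globins most closely over the 6 libraries were found among 13160 genes with a mean of at least 1 CPM, by Pearson's r of log2 CPM. They were Fan1 (r = 0.993), Npc1 (0.991), Pde8b (0.990), Cyp4v3 (0.989), Wdr41 (0.985), Ppfibp1, Mapkbp1, Galnt6, Gnmt and Pilrb1 (0.982 to 0.983), with Spearman's rho between 0.829 and 1. All 10 were highest in Sham replicate 2, and 9 of them had OVX replicate 3 next, as the summed globins did. None of them is a gene of the erythroid lists. The values rest on 6 libraries that share these differences in macrophage and neutrophil markers, and they were the highest of 13160, so they describe the choice and were not tested.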

How the data were processed

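The 9 genes and the gene lists were chosen with earlier results of these data known. The deposited table holds unnormalized read counts that the authors made per Ensembl gene in 6 RNA-seq libraries, 3 OVX and 3 Sham, grouped by their labels. Per the submitters' processing notes the reads were handled with CASAVA and Bowtie 0.12.2 on mm10, while the annotation, the counting tool and its handling of strand and of shared reads are not given in the sources used here. Symbols matched 54409 of 54532 identifiers, and the chaperone Ahsp, 1 of the listed genes, had no row under its symbol and is not analysed here.

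The main tool was edgeR 4.0.16 in R 4.3.3. Genes were kept by filterByExpr by group, scaled by TMM and compared by the quasi-likelihood test with Benjamini-Hochberg adjustment over the 15305 genes kept. SE is the log2 fold change divided by the square root of its F statistic, without sign. Alternatives were DESeq2 1.42.0, limma-voom (limma 3.58.1), other scalings and filters, each library left out in turn and a replicate block. Ratios were logged after adding 0.5 to each sum. Total counts per library differed by 1.39-fold at most, every pair of libraries differed by more than counting noise, and binomial intervals cover counting error only, as reads carry no molecular identifiers.

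Genes named are the 9, in each erythroid list the 4 with the highest mean CPM and those with an unadjusted p-value under 0.05, defining markers of each marker list, and the 10 genes most like the summed globins. Gp1bb, Tmod1 and the embryonic globins were named after their values were seen. Sequences and coordinates are from RefSeq, build GRCm38.p6. The promoter of Slc4a1 is not shown. Some genes that the naming rule picks are not reported here. ChIP-seq of the series was not analysed here.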

Additional observations from a re-analysis of the deposited data

How the results depend on the processing

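In none of the 16 alternatives was any gene called, including the 9 erythroid genes. The lowest adjusted p-value of any of the 9 in an alternative was 0.273, for Slc4a1 without Sham replicate 1. The number at an unadjusted p-value under 0.05, 1 by the quasi-likelihood test, was 3 by DESeq2, 0 by limma-voom, 4 with no filter on low counts and 4 without Sham replicate 1. Over all genes it was 574 of 15305, and it was 755 of 27416 by DESeq2, 594 of 15305 by limma-voom and 1269 of 27416 with no filter. With 1 Sham library left out it was 2698 of 16051 (replicate 1), 360 of 15609 (replicate 2) and 286 of 15890 (replicate 3). With 1 OVX library left out it was 988 of 15977 (replicate 1), 233 of 15737 (replicate 2) and 411 of 15678 (replicate 3). With the replicate block 0 genes and 0 of the 9 were called, and 206 genes had an unadjusted p-value under 0.05. Libraries with the same number did not deviate together (correlations of -0.41, -0.19 and -0.28), so the numbers were not taken as pairs.

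Of 135 log2 fold changes of the 9 genes under the alternatives, 132 kept their direction. The 3 that did not were Hba-a2 and Hbb-bs without Sham replicate 2, at 0.30 and 0.0334, and Hba-a2 without both Sham replicate 2 and OVX replicate 3, at 0.0985, an alternative chosen after seeing the data, as were the counts of list genes under other scalings and with libraries left out. With single libraries left out, Hba-a2 ranged from -0.49 to 0.30 and Hbb-bs from -0.64 to 0.0334. Scaling on the B cell markers lowered the median of all genes from -0.0081 to -0.11 on the log2 scale and gave 50 higher and 484 lower genes at an unadjusted p-value under 0.05, in place of 225 and 349. All 9 genes stayed lower in OVX under each of the 3 other scalings. The log2 ratio of globins to the 5 other genes differed between OVX and Sham by 0.0957 to 0.73 with a library left out, by 0.47 with beta globins alone, by 0.54 with alpha globins alone and by 0.59 without Epor and Gata1. Counting error weighs most on Klf1, which had the fewest counts of the 9 genes, 34 in OVX replicate 2.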
